A study of Homo sapiens with 3 samples.

Results

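Genes of the aryl hydrocarbon receptor (AhR) pathway were compared between parental and paclitaxel-resistant breast cancer cells. The 9 genes were taken by gene symbol from the 46427 genes of the table, and all 9 were present. They comprise AHR, which encodes the receptor, its DNA-binding partner ARNT, its repressor AHRR, and 6 genes known to be switched on by the receptor, CYP1A1, CYP1A2, CYP1B1, TIPARP, ALDH3A1 and UGT1A6. The cells were MDA-MB-468, a human epithelial line of triple-negative breast cancer (TNBC), called parental MM468 here. MM468/PR cells were those that survived culture in paclitaxel (2 to 320 nM), a drug that stabilizes microtubules. The parental cells were untreated, both lines carried the wild-type label for genotype, and the same serum-containing medium was used for them. Whether drug was present when RNA was taken, and whether MM468/PR was 1 clone or a mixed population, is not given in the sources used here.

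Each line was sequenced as 1 library, so no difference has a replicate check, no SD can be given and no test was possible. The libraries held 32704885 reads counted on genes in parental cells and 43242628 in MM468/PR cells. Differences are given as folds of read counts scaled by the TMM method, with an exact binomial 95% interval of the ratio of 2 counts that covers counting error only. A gene was compared where 1 of the 2 libraries had at least 10 counts, and a difference of at least 2-fold is counted as a change. Where a library had 0 counts, the fold is a lower bound computed against 3 counts in that library. Shares of all genes with a higher fold place such genes at their bound and may therefore be too low. Levels of different genes are compared on TPM, a share of all transcripts that corrects for their length. In bulk RNA, a change in the share of cells that express a gene and a change in the RNA per cell cannot be told apart. Where 2 values follow a gene, the parental MM468 value stands first and the MM468/PR value after it.

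AhR is a transcription factor of the bHLH-PAS family that waits in the cytoplasm with HSP90 and other chaperones. A ligand, such as dioxin, a plant compound or a tryptophan metabolite, lets it enter the nucleus, pair with ARNT and bind DNA at xenobiotic response elements. Genes of the CYP1 family are its classic targets, and AHRR and TIPARP, which are also induced, feed back to restrain it. The study concerned an AhR agonist for resistant TNBC, and the question put to the RNA-seq here was how the receptor, its partners and its targets stood in paclitaxel-resistant cells in the absence of that agonist.

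The core of a xenobiotic response element is GCGTG. RefSeq promoter windows, which run from 250 bases before to 50 bases after an annotated start (GRCh38.p14), were held for 7 of the 9 genes, and gave 11 windows. The core, read on both strands as GCGTG or CACGC, was in 6 of these windows and in 36.5% of all 35116 windows, so its presence is common. The longer TNGCGTG, which contains the core, was in 5.51% of all windows. The core also overlaps the letters that hypoxia-inducible factors bind. The 250 bases upstream of the start are printed 5′ to 3′ on the gene's strand for CYP1A1, CYP1A2, UGT1A6 and AHRR, which were higher in MM468/PR cells, and for TIPARP, which lay just under 2-fold. Capitals mark the core.
CYP1A1, chr15:74725529-74725778, minus strand: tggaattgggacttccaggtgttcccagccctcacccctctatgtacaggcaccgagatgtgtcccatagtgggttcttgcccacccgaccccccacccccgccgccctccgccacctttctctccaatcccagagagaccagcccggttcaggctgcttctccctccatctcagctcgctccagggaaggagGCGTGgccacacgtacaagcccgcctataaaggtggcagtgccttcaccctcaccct
CYP1A2, chr15:74748595-74748844, plus strand: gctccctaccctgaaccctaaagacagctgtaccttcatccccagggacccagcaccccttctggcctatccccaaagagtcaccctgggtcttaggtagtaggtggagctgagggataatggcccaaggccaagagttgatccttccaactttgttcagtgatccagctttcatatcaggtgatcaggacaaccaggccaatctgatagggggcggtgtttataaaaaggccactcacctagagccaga
UGT1A6, chr2:233691452-233691701, plus strand: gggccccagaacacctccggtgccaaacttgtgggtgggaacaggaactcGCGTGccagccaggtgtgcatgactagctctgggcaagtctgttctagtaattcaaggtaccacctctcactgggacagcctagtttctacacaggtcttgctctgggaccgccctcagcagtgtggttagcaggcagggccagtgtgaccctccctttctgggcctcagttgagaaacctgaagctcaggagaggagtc
AHRR, chr5:321464-321713, plus strand: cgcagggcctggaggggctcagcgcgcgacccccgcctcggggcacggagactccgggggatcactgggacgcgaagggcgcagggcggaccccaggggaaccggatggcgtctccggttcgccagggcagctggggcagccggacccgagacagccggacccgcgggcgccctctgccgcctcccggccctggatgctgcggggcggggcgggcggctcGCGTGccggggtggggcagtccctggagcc
TIPARP, chr3:156674340-156674589, plus strand: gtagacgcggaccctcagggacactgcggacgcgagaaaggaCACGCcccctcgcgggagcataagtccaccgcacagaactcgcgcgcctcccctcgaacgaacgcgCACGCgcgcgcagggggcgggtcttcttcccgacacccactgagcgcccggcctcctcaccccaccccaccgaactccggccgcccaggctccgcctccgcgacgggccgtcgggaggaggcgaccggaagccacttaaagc

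CYP1A1 held the core once in its window, 57 bases before its start. CYP1A2 held none in its window. The UGT1A6 core stood 200 bases before the start and the AHRR core 30 bases before it, and both were part of the longer TNGCGTG. TIPARP held the core on the opposite strand, 208 and 142 bases before the first of its 3 annotated starts. In windows not printed, the core lay 37 bases after the AHR start, and 247 and 42 bases before a further AHRR start. ARNT, the other windows of TIPARP and a further UGT1A6 window had none. These matches describe letters, and binding was not measured. Sequence beyond the windows was not searched, so a window without the core does not mean that the gene lacks one.

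The receptor and its partner were slightly lower in MM468/PR than in parental MM468 cells, while most of the targets were higher. UGT1A6, CYP1A2, ALDH3A1 and CYP1A1 were higher by 21.9-fold, 9.12-fold, 3.34-fold and 2.40-fold. AHRR was counted in MM468/PR cells alone, while the PDCD6-AHRR readthrough, entered separately, had 95 counts in parental and 25 in MM468/PR cells. TIPARP was 1.87-fold higher and CYP1B1 stayed near the parental value. Of the 9 genes, 5 were thus at least 2-fold higher, with AHRR taken by its own entry, against 20.5% of all 19099 genes compared. None of the 9 was at least 2-fold lower, against 13.5% of all genes. All 9 genes passed the count minimum.

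The median log2 fold change of the 9 genes was 1.26, where the median over all genes was 0.07. Because the 9 genes were chosen with earlier results of these data known, this contrast only describes them. Scaling by library size alone moved the median of all genes up by 0.23. That scaling also changed the balance of all genes. Of the genes changed at least 2-fold, 60.2% were higher with TMM, 71.2% with library size and 71.2% to 75.5% on TPM. Among the 9 genes, TIPARP passed 2-fold with library size and on TPM, and AHRR fell under it on TPM with a pseudocount of 1. Their values are given beside each gene.

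**Figure D1:**
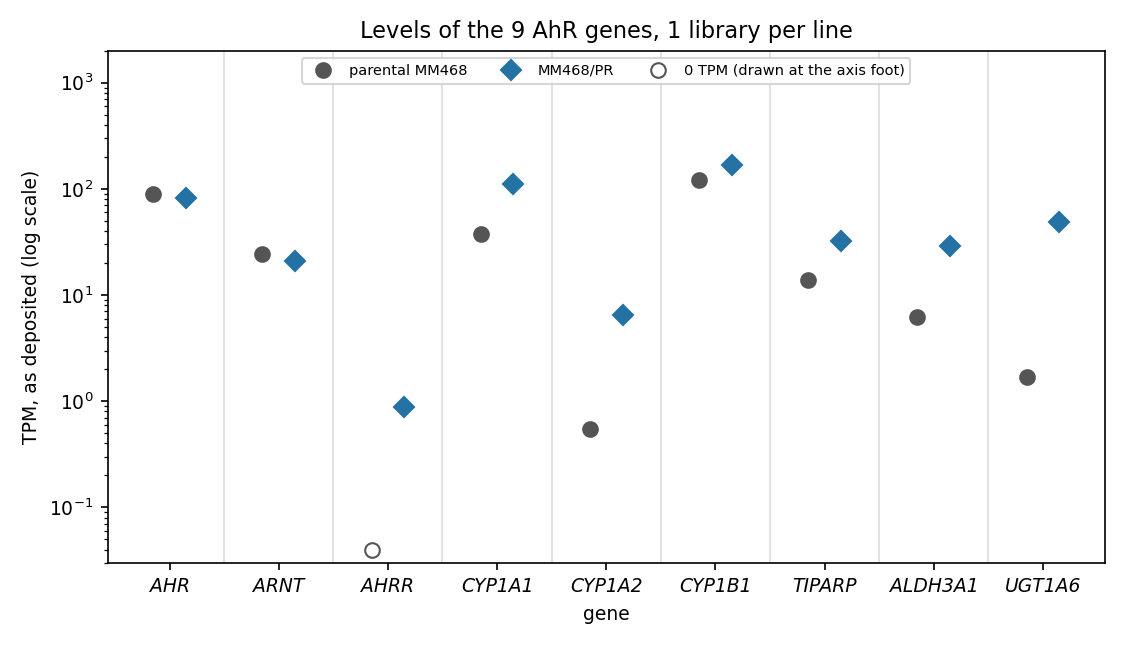
TPM of the 9 AhR genes (log scale) in the single library of parental MM468 (grey circles) and MM468/PR cells (blue diamonds). AHR and ARNT differ little between the lines, CYP1A2, ALDH3A1 and UGT1A6 stand well above the parental value in MM468/PR cells, and CYP1B1 is the highest point in both. The open circle marks AHRR at 0 TPM in parental MM468 cells.

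AHR (NCBI Gene 196, chr7:17298652-17346147, GRCh38.p14, plus strand) had 8177 counts in parental cells and 9393 in MM468/PR cells. Its level was 88.6 and 82.6 TPM, so the receptor transcript was abundant in both lines. AHR was 1.35-fold lower in MM468/PR cells (95% counting interval 1.31 to 1.39), less than the 2-fold used to count a change. The size of this difference depended on the scaling. The log2 fold change was -0.43 with TMM, -0.20 with library size, and -0.10 on TPM and -0.18 on FPKM with a pseudocount of 1.

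ARNT (NCBI Gene 405, chr1:150809713-150876599, minus strand), without which the receptor cannot bind its elements, followed AHR closely. It had 1662 and 1801 counts, or 24.5 and 21.0 TPM. ARNT was 1.43-fold lower in MM468/PR than in parental cells (1.34 to 1.53). Its log2 fold change was -0.51 with TMM, -0.29 with library size and -0.21 on TPM with a pseudocount of 1. The receptor stood above its partner in each library, with a ratio of AHR to ARNT TPM of 3.62 in parental cells and 3.94 in MM468/PR cells.

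AHRR (NCBI Gene 57491, chr5:321714-438285, plus strand) encodes a repressor that competes with AhR for ARNT and is itself induced by the receptor. It had 0 counts in parental cells and 90 in MM468/PR cells, or 0 and 0.872 TPM. Against 3 counts, which in the parental library correspond to a CPM of 0.0917, it was at least 19.4-fold higher in MM468/PR cells. The call rests on 90 counts, and it was lost on TPM and on FPKM with a pseudocount of 1, at log2 fold changes of 0.90 and 0.42, and with a minimum of 100 counts, under which AHRR was not compared. Even in MM468/PR cells AHRR was the least abundant of the 9 genes on TPM. The gene is overlapped on the same strand by PDCD6, with 4029 and 3657 counts, and a PDCD6-AHRR readthrough transcript has an entry of its own, with 95 and 25 counts. PDCD6-AHRR was thus lower in MM468/PR cells, where AHRR was higher. How the counting divided reads among these overlapping genes is not given in the sources used here. The AHRR and PDCD6-AHRR entries were not summed, so the fold holds for the AHRR entry alone and not for the locus.

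CYP1A1 (NCBI Gene 1543, chr15:74719542-74725528, minus strand) encodes the monooxygenase whose induction is the usual readout of AhR activity. It had 1432 counts in parental cells and 5318 in MM468/PR cells, or 37.2 and 112 TPM. MM468/PR cells had 2.40-fold more than parental cells (2.26 to 2.55). Of all genes compared, 15.7% had a higher log2 fold change than that of CYP1A1, so a change of this size was not rare between these libraries. For CYP1A1 the log2 fold change was 1.26 with TMM, 1.49 with library size and 1.57 on TPM with a pseudocount of 1.

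CYP1A2 (NCBI Gene 1544, chr15:74748845-74756607, plus strand) is a related monooxygenase best known from liver, where it oxidizes caffeine. Its start lies 23.3 kb from that of CYP1A1, and the genes are transcribed away from each other. It had 26 counts in parental cells and 367 in MM468/PR cells, or 0.547 and 6.43 TPM. CYP1A2 was 9.12-fold higher in MM468/PR cells (6.13 to 14.2), an interval that lies wholly above that of CYP1A1, and 2.62% of all genes compared had a higher fold or bound. With a pseudocount of 1, which weighs down low values, the log2 fold change of CYP1A2 fell from 3.18 to 2.26 on TPM and 1.52 on FPKM, the latter close to the 1.46 of CYP1A1. CYP1A1 exceeded CYP1A2 68.0-fold on TPM in parental cells and 17.5-fold in MM468/PR cells, so the neighbours lay closer in the resistant line.

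CYP1B1 (NCBI Gene 1545, chr2:38067509-38076151, minus strand), which oxidizes estrogens and polycyclic hydrocarbons and is the CYP1 enzyme best known from breast tissue, took a different course. It had 9402 counts in parental cells and 15873 in MM468/PR cells, or 122 and 167 TPM. It was the most abundant of the 9 genes in each library. MM468/PR cells had 1.09-fold more than parental cells (1.06 to 1.12), close to the parental value. The log2 fold change was 0.13 with TMM, 0.35 with library size and 0.45 on TPM, under 2-fold on each scale. CYP1B1 is overlapped on the opposite strand by RMDN2, with 322 and 531 counts, and by CYP1B1-AS1, with 18 and 56. The library kit keeps strand, but whether the counting used it is not given in the sources used here.

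**Figure D2:**
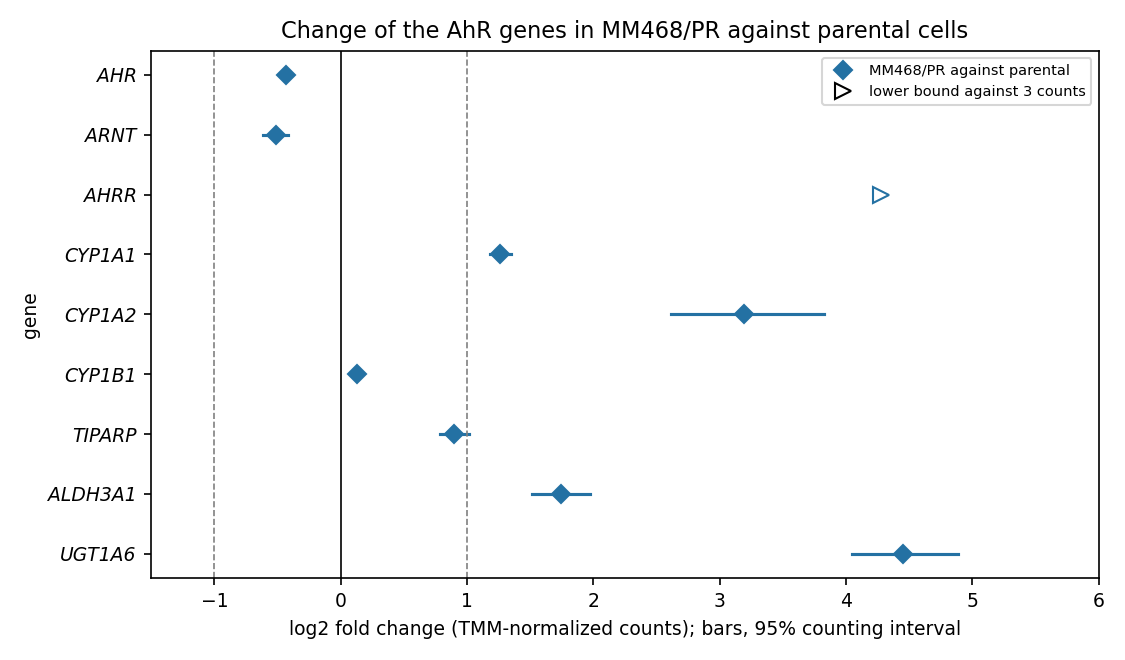
Log2 fold change of each AhR gene in MM468/PR against parental MM468 cells (blue diamonds), from TMM-scaled counts of single libraries. Bars are 95% counting intervals, the open triangle is the lower bound for AHRR against 3 counts, and dashed lines mark 2-fold. AHR and ARNT lie left of 0, CYP1B1 lies next to it, and UGT1A6 lies at 4.45.

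The 3 CYP1 transcripts together came to 160 TPM in parental cells and 286 in MM468/PR cells, and their make-up shifted toward CYP1A1. CYP1A1 made up 23.3% of the sum in parental cells and 39.3% in MM468/PR cells. CYP1B1 made up 76.4% and 58.5%, and the share of CYP1A2 was 0.343% and 2.25%. CYP1B1 exceeded CYP1A1 3.28-fold on TPM in parental cells and 1.49-fold in MM468/PR cells. These shares and ratios are taken within a library and so do not depend on scaling between libraries.

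**Figure D3:**
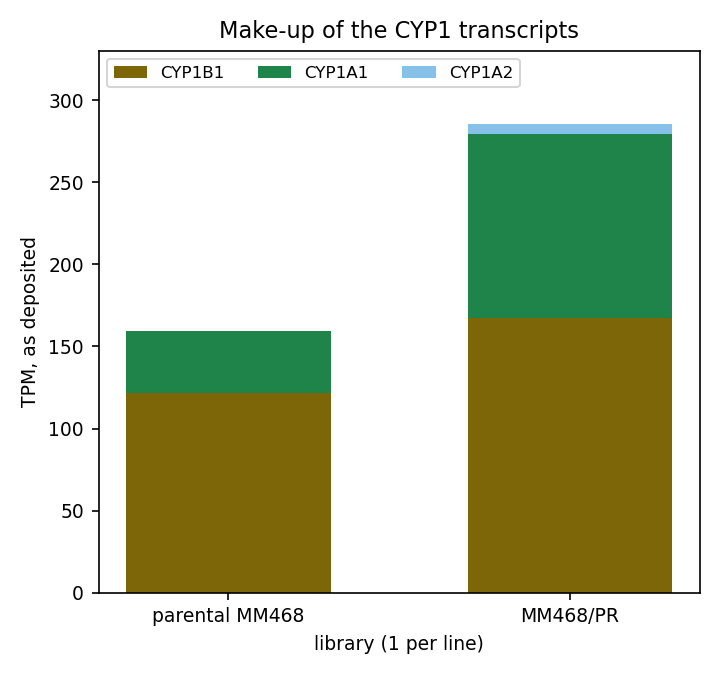
Summed TPM of CYP1B1 (brown), CYP1A1 (green) and CYP1A2 (light blue) in the single library of each line. The bars reach 160 TPM in parental cells and 286 TPM in MM468/PR cells, and CYP1A1 fills 23.3% of the former and 39.3% of the latter.

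TIPARP (NCBI Gene 25976, chr3:156674590-156706770, plus strand), an ADP-ribosyltransferase that is induced by AhR and marks it for loss, had 791 counts in parental cells and 2286 in MM468/PR cells. This was 13.9 and 32.5 TPM. MM468/PR cells had 1.87-fold more (1.72 to 2.03), just under the 2-fold mark. The log2 fold change was 0.90 with TMM. It passed 2-fold with library size, at 1.13, and on TPM, at 1.17 with a pseudocount of 1. TIPARP-AS1, which starts beside it on the opposite strand, had 19 and 44 counts.

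ALDH3A1 (NCBI Gene 218, chr17:19737984-19748298, minus strand), an aldehyde dehydrogenase that detoxifies reactive aldehydes, had 186 counts in parental cells and 962 in MM468/PR cells, or 6.16 and 29.3 TPM. MM468/PR cells had 3.34-fold more than parental cells (2.85 to 3.93), and 9.82% of all genes compared had a higher fold or bound. Its 3 paralogs did not share this course. ALDH3A2 and ALDH3B1 had log2 fold changes of 0.09 and -0.10. ALDH3B2 had 6453 counts in parental cells and 2641 in MM468/PR cells and was 3.78-fold lower in the latter (3.61 to 3.96). Of the paralogs, 0 were thus at least 2-fold higher and 1 was lower, where the shares of all genes were 20.5% and 13.5%.

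UGT1A6 (NCBI Gene 54578, chr2:233691702-233773300, plus strand), which couples small phenols to glucuronic acid, had the widest range among the members with counts in each library. It had 50 counts in parental cells and 1691 in MM468/PR cells, or 1.67 and 49.2 TPM. MM468/PR cells had 21.9-fold more than parental cells (16.5 to 29.6). The log2 fold change was 4.45, and 3.58 on FPKM with a pseudocount of 1. Of all genes compared, 1.05% had a higher fold or bound.

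UGT1A6 is 1 of 9 genes of the UGT1A locus, which have first exons of their own and share the others. In GENCODE v29, 44.0% of the 5180 exonic bases of UGT1A6 belonged to another UGT1A gene as well, so the division of reads among them is uncertain. Outside UGT1A6, the locus had 0 counts in parental cells and 44 in MM468/PR cells. UGT1A1, which conjugates bilirubin, had 0 and 23 of these and was at least 4.95-fold higher in MM468/PR cells. The sum over the 9 UGT1A genes was 50 and 1735 counts, 22.4-fold higher in MM468/PR than in parental cells (16.9 to 30.3). UGT1A6 held 100% of the locus counts in parental cells and 97.5% in MM468/PR cells.

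On TPM, the order of the 9 genes within a library differed between the lines below CYP1B1. AHR came next in parental MM468 cells, ahead of CYP1A1 and ARNT. In MM468/PR cells CYP1A1 came next, ahead of AHR and UGT1A6, and ARNT stood under TIPARP and ALDH3A1. CYP1A1 ranked 4340 among all genes by TPM in parental cells and 1513 in MM468/PR cells. UGT1A6 ranked 13506 and 3739, and AHR 1847 and 2209. CYP1A1 and UGT1A6 thus changed place far more than the receptor did.

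Transcripts of the proteins that hold, activate or assist AhR mostly stayed within 2-fold, as did 66% of all genes compared. All 10 chaperones and coactivators listed passed the count minimum, and 0 were at least 2-fold higher and 1 was lower in MM468/PR than in parental cells, against 20.5% and 13.5% of all genes, with a median log2 fold change of -0.24. HSP90AA1, the inducible chaperone of the complex, was at 874 and 1784 TPM and had a log2 fold change of 0.67 on the scaled counts. CREBBP, a histone acetyltransferase, was at 19.3 and 38.8 TPM, with a log2 fold change of 0.66. On TPM without a pseudocount both lay just past 2-fold, unlike on the scaled counts. RELB, an NF-kB subunit that can pair with AhR, was the one that was lower, with 491 and 276 counts, or 2.75-fold (2.37 to 3.20).

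Other bHLH-PAS genes could share ARNT or stand in for it. Of the 13 listed, 11 passed the minimum, 3 were at least 2-fold higher in MM468/PR than in parental cells and 1 was lower, with a median log2 fold change of 0.13. The shares of all genes, 20.5% higher and 13.5% lower, were near these counts. ARNT2, the paralog of ARNT, had 25 counts in parental cells and 465 in MM468/PR cells and was 12.0-fold higher (8.04 to 18.8), but its level of 3.91 TPM in MM468/PR cells was still well under that of ARNT. SIM1, a neural developmental factor, had 406 and 1949 counts and was 3.10-fold higher (2.79 to 3.46). NPAS2, a clock factor, had 1009 and 595 counts and was 2.62-fold lower (2.37 to 2.91). HIF1A, which uses ARNT under low oxygen, was at 81.4 and 97.7 TPM, and EPAS1, its relative, at 107 and 67.7 TPM. EPAS1 had a log2 fold change of -0.99, just short of 2-fold.

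A further 16 genes that have been described as responsive to AhR moved in both directions. Of these, 15 passed the minimum, 5 were at least 2-fold higher in MM468/PR than in parental cells and 5 lower, against 20.5% and 13.5% of all genes, with a median log2 fold change of 0.16. The list thus held genes at both ends, and its median was near that of all genes.

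IL6, an inflammatory cytokine, had 36 counts in parental cells and 943 in MM468/PR cells and was 16.9-fold higher (12.1 to 24.3). EREG, a growth factor that binds EGFR, had 15 and 122 counts and was 5.26-fold higher (3.06 to 9.68). PTGS2, the inducible cyclooxygenase, had 0 and 76 counts, ABCG2, a drug efflux pump, had 0 and 28, and SERPINB2, a protease inhibitor, had 6 and 60. These 5 genes were the ones that were higher. FOXQ1, a forkhead transcription factor, was the lowest, with 1961 and 399 counts, 7.61-fold lower in MM468/PR cells (6.83 to 8.49). CYP2S1, a cytochrome P450 of epithelia, had 700 and 194 counts and was 5.58-fold lower (4.76 to 6.58). STC2, a secreted glycoprotein, had 2818 and 1113 counts and was 3.92-fold lower (3.65 to 4.20). NFE2L2, which encodes NRF2, was lower by 2.06-fold (1.97 to 2.15), an interval that includes 2-fold. At 131 and 77.9 TPM, NFE2L2 lay under 2-fold on that scale. GSTA1, a glutathione transferase, had 16 and 4 counts. These were the 5 lower genes on the scaled counts. NQO1, a quinone reductase shared with the NRF2 pathway, stayed within 2-fold, with a log2 fold change of -0.90.

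Genes that make, carry or break down the tryptophan-derived ligands of AhR included, among those compared, none that was at least 2-fold higher. Of 13 listed, 9 passed the minimum, 0 were at least 2-fold higher in MM468/PR cells and 2 were lower, against 20.5% and 13.5% of all genes, with a median log2 fold change of -0.19. KYNU, which breaks down kynurenine, had 5577 counts in parental cells and 1951 in MM468/PR cells, 4.42-fold lower (4.20 to 4.66). DDC, which makes tryptamine from tryptophan, had 138 and 8 counts and was 26.7-fold lower (13.2 to 63.1). The dioxygenases that open the tryptophan ring were near 0, with IDO1 at 3 and 0 counts and IDO2 and TDO2 at 0 in both libraries. KYAT3, an aminotransferase that acts on kynurenine, had the highest log2 fold change of the list, 0.63.

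**Figure D4:**
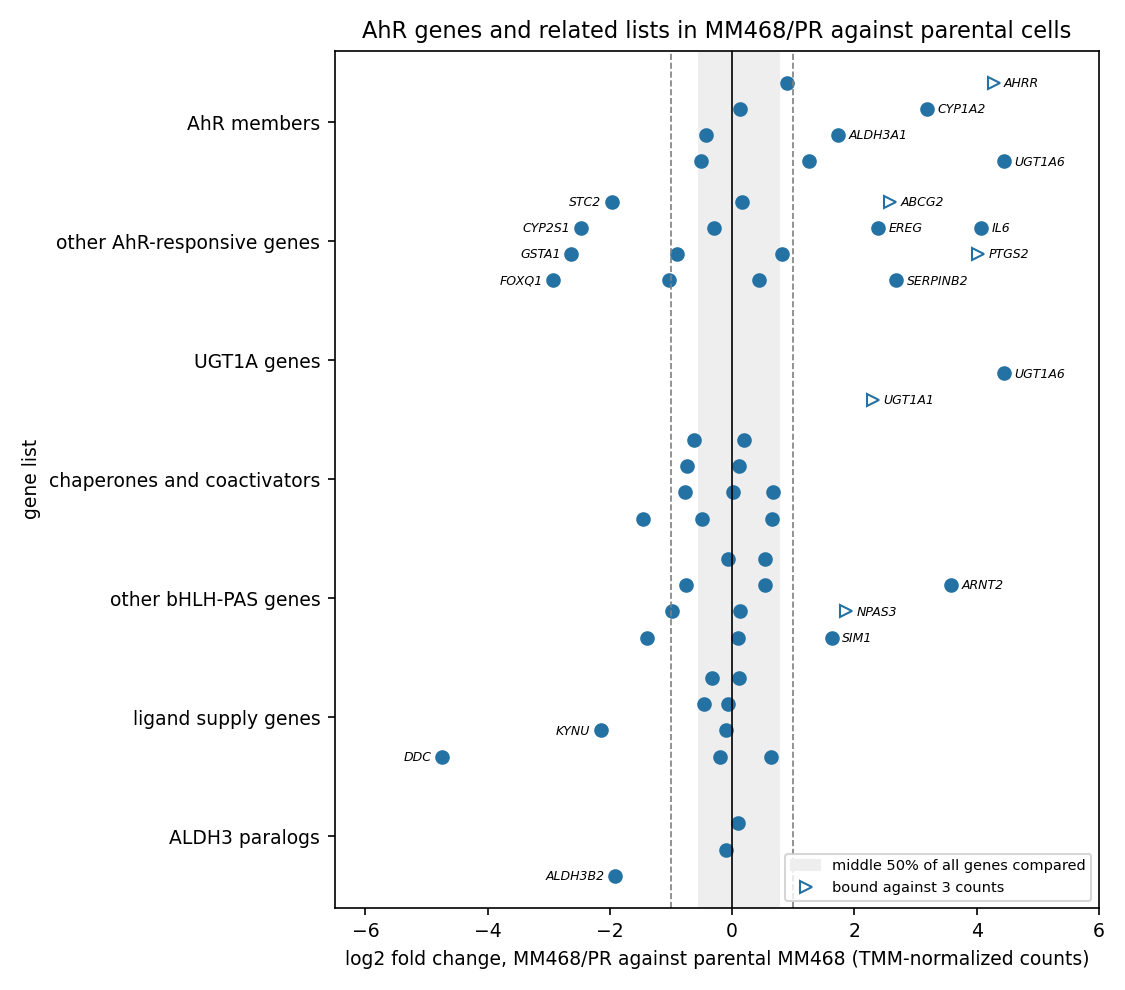
Log2 fold change of MM468/PR against parental MM468 cells for each gene of the AhR set and of 6 related lists that passed the count minimum, from TMM-scaled counts of 1 library each. The grey band holds the middle 50% of all genes compared (-0.54 to 0.77), dashed lines mark 2-fold and triangles are bounds against 3 counts. UGT1A6, drawn in both of its lists, AHRR, CYP1A2, ALDH3A1 and CYP1A1 lie right of the 2-fold line, TIPARP lies between it and the band, and the other AhR-responsive genes spread to both sides of it.

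Epithelial markers, which should be high in these cells, were abundant in each library. EPCAM was at 565 and 788 TPM in parental and MM468/PR cells, and KRT8 at 2032 and 2436 TPM. KRT18 was at 1369 and 1653 TPM, and CDH1 at 47.3 and 102 TPM. KRT19 went the other way, at 2252 and 1438 TPM, with a log2 fold change of -0.98, just short of 2-fold. EGFR, which is amplified in these cells, was at 1152 and 1288 TPM. Of the receptors that TNBC lacks, PGR had 0 and 7 counts and ESR1 was at 1.69 and 1.45 TPM, while ERBB2 was at 32.3 and 28.1 TPM. KRT14, a basal keratin, was lower in MM468/PR cells, with 2347 and 474 counts. KRT5 and KRT17, the other basal keratins listed, stayed within 2-fold, with log2 fold changes of -0.32 and -0.23. ABCB1, the efflux pump that served as a check of the resistant label, had 10 and 8171 counts. The 4 markers of other cell types summed to 693 counts in parental cells and 866 in MM468/PR cells, mostly from COL1A1 of stromal cells, with 659 and 820. PTPRC of leukocytes had 24 and 44 counts, PECAM1 of endothelium 10 and 2, and PDGFRB of stroma 0 in both. Their part in the results was not tested.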

How the data were processed

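RNA was extracted from 1 culture sample of each line, poly(A) libraries were made with a strand-keeping kit, and, per the submitters' processing notes, Trimmomatic 0.39, HISAT2 2.2.1, StringTie 2.2.1 and the GRCh38 build were used. A further line of the experiment and 1 gene of the lists are not reported here, and neither are the settings that needed the library of that line. The authors deposited whole-number read counts per gene, not normalized, and FPKM and TPM values computed from the same reads. In this work, counts of the 2 libraries were scaled by TMM (edgeR 4.0.16, R 4.3.3), with a minimum of 10 counts in 1 library and a prior count of 0.125. With 1 library a line, the spread cannot be estimated, so edgeR and DESeq2 tests could not be fitted and no p-value is given. Depth was 32704885 and 43242628 counts, and 3 counts equal a CPM of 0.0917 and 0.0694. The members and all gene lists were chosen with earlier results of these data known. Genes named beside the 9 members, genes needed to read a member and markers were chosen after their values had been seen, mostly as the highest and lowest of a list with 100 or more counts. The alternatives tried were library size, size factors of DESeq2 1.42.0, a prior count of 2, other count minimums, TPM with a pseudocount of 1 or 0.1, FPKM with a pseudocount of 1, and summed UGT1A counts. Positions and promoters are from RefSeq (GRCh38.p14), and strands, overlaps and exons from GENCODE v29. The steps were tested on simulated counts that held counting error only, with far fewer genes changed than between these libraries.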

Additional observations from a re-analysis of the deposited data

How the results depend on the processing

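No paired analysis was possible because each line has a single library, and for the same reason no library could be left out. The numbers of AhR genes at least 2-fold higher and lower in MM468/PR than in parental cells, 5 and 0, stayed within 1.5 times under the alternatives run. The genes counted were not always the same ones. AHRR lost its 2-fold call with a minimum of 100 counts and, at a pseudocount of 1, on TPM (log2 fold change 0.90) and FPKM (0.42), and TIPARP gained one with library size (1.13), on TPM (1.17) and on FPKM (1.03). Of 72 recomputed log2 fold changes, those of the 9 genes and that of the summed UGT1A counts set against UGT1A6, 42 lay inside the counting interval and 30 outside it, and 0 changed sign. Counts of all genes depended on the filter and on the unit. Without a count minimum, 7035 genes were higher in MM468/PR cells. Raising the minimum to 100 counts left 1702 higher and 1569 lower. With TPM, 1055 were lower at a pseudocount of 1 and 1580 at 0.1, and with FPKM 1374 were higher and 882 lower. Intervals cover counting error only, and variation between cultures could not be estimated.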

Other observations

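The transcript length implied by the deposited values, which is the count divided by the FPKM and by the depth of the library, was nearly the same in both lines for CYP1A1, at 2.85 kb in parental MM468 and 2.80 kb in MM468/PR cells. For ALDH3A1 it was 2.23 and 1.94 kb, and for UGT1A6 2.21 and 2.03 kb.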
